A study of Mus musculus with 6 samples.

Results

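Claudins, classical and other cadherins, desmosomal cadherins and connexins are the membrane proteins that join epithelial cells to each other, and their transcripts were followed in the forelimb bud ectoderm of mouse embryos with and without Sp8. Members were all genes of the RNA-seq table whose symbol is Cldn, Cdh or Dsc with a number, Dsg with a number and an optional letter, or Gja to Gje with a number. This rule, which uses names and no measured value, took 74 of 49452 genes: 23 claudins, 22 cadherins, 9 desmosomal cadherins and 20 connexins. Of these, 24 had at least 1 FPKM (sequenced fragments relative to transcript length and to the mapped total of each library) in at least 3 libraries and were tested, and the other 50 lay under that filter.

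The libraries came from 3 wild-type embryos of C57BL/6 crosses and 3 Sp8 null embryos whose parents were both heterozygous for the Sp8-Cre-ERT2 allele, all at E10.5 and all with the background strain given as C57BL6J. The kind of cross thus differed with the genotype, and their effects cannot be told apart. Each library held the polyadenylated RNA of the ectoderm, the cell layer covering the bud, from both forelimbs of 1 embryo, freed by trypsin and forceps. Sp8 encodes an Sp-family transcription factor with zinc fingers that outgrowth of the limb requires, and the design asks which transcripts differ when it is lost.

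Neighbouring epithelial cells are held together by several kinds of junction. In adherens junctions, cadherins bind their like on the next cell and are anchored to actin through catenins. In desmosomes, desmogleins and desmocollins bind across the gap and are anchored to keratin through plaque proteins. Claudins form the strands of tight junctions, which seal the space between cells, and connexins form the channels of gap junctions, through which ions and small molecules pass. The ectoderm of the early limb bud is a thin epithelium with a thickened distal rim, the apical ectodermal ridge, whose cells are known to be richly joined by gap junctions.

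Sp8 itself was listed between 0.46 and 1.14 FPKM in the nulls and between 8.35 and 13.5 FPKM in wild type, so every library matched its genotype label. Depth is known only relative to wild-type embryo 1 and lay between 0.842 and 1.03. All 12 markers of surface ectoderm were measured, with a summed level of 462 to 552 FPKM in the nulls and 543 to 580 FPKM in wild type. In the nulls Tfap2a was higher (limma adjusted p = 0.0163), and Epcam and Dlx3 were lower (limma adjusted p = 0.0313 and 0.0054). The other 9 surface ectoderm markers had a limma adjusted p above 0.05. The 13 limb mesenchyme markers summed to 91.2 to 236 FPKM in the nulls and 86 to 135 FPKM in wild type, with the highest library of each genotype being Sp8 null embryo 2 and wild-type embryo 1. The 8 erythroid markers summed to 62.3 to 162 FPKM in the nulls and 11.7 to 423 FPKM in wild type. The 9 macrophage markers were low but did not overlap, at 1.65 to 3.21 FPKM in the nulls and 0.276 to 0.987 FPKM in wild type, and the 10 endothelial markers overlapped, at 3.12 to 5.44 and 2.98 to 4.04 FPKM. The 7 periderm markers (52.2 to 73.2 and 54.1 to 66.6 FPKM), 6 neural crest and glial markers (9.82 to 11.6 and 9.18 to 10.2 FPKM) and 6 muscle precursor markers (15.0 to 17.7 and 11.4 to 15.3 FPKM) overlapped between Sp8 null and wild type. The macrophage marker that reached 1 FPKM in any library was Fcer1g, and of the endothelial markers Emcn was at 0 in all libraries but Sp8 null embryo 1. The part of these other cell types in the differences between genotypes was not tested. In bulk ectoderm, fewer cells of a type and less RNA per cell cannot be told apart.

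Junction genes of the ectoderm changed in both directions with loss of Sp8, while the most abundant claudin and cadherins (Cldn6, Cdh1 and Cdh3) were not called. The gap junction gene Gja1 fell to 0.39 of its wild-type mean, Gjb2 and Gjb6 rose 1.65-fold and 1.71-fold, Cdh2 fell to 0.222 and Cdh13 rose 2.54-fold. Among claudins, Cldn7 and Cldn1 fell and Cldn23 rose. Of the 24 tested members 8 differed, 4 higher and 4 lower (limma, Benjamini-Hochberg adjusted p under 0.05 over all genes), or 33.3% against 6.83% of all 12133 tested genes. By direction, 16.7% were higher against 1.68% of all tested genes, and 16.7% were lower against 5.15%. The groups did not overlap for 16 of the 24 (66.7%, against 29.8% of all tested genes). Of these, 7 were higher and 9 lower, where 8.63% and 21.1% of all tested genes were. The median log2 fold change was 0.09 for the members and -0.06 for all tested genes. Scaling between libraries shifted this split: median-of-ratios and upper-quartile scaling each gave 8 called members, 6 higher and 2 lower, and the calls over all genes moved from 24.6% higher to 37.2% and 41.7% higher. Rescaling to TPM, which follows 1 mitochondrial tRNA gene here, gave 0 called members and 0 called genes in limma (0 and 23 at an unadjusted p under 0.05). Without the library of each genotype that had most mesenchymal marker RNA, 6 of the 8 were still called (Gja1, Cdh13, Gjb6, Cldn23, Gjb2 and Cdh2). The sample names start with 4 for embryo 1 of each genotype and with 5 for the others, a number with no stated meaning, and among the 4 libraries with a 5 the called members were Gja1, Cdh13, Gjb6 and Gjb2. Leaving out 1 library gave 2 to 6 called members, with the fewest, Gja1 and Cdh13, without wild-type embryo 3. Nothing in the labels says whether embryos of 1 genotype were littermates, so p-values measure the spread between these 6 embryos.

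**Figure D1:**
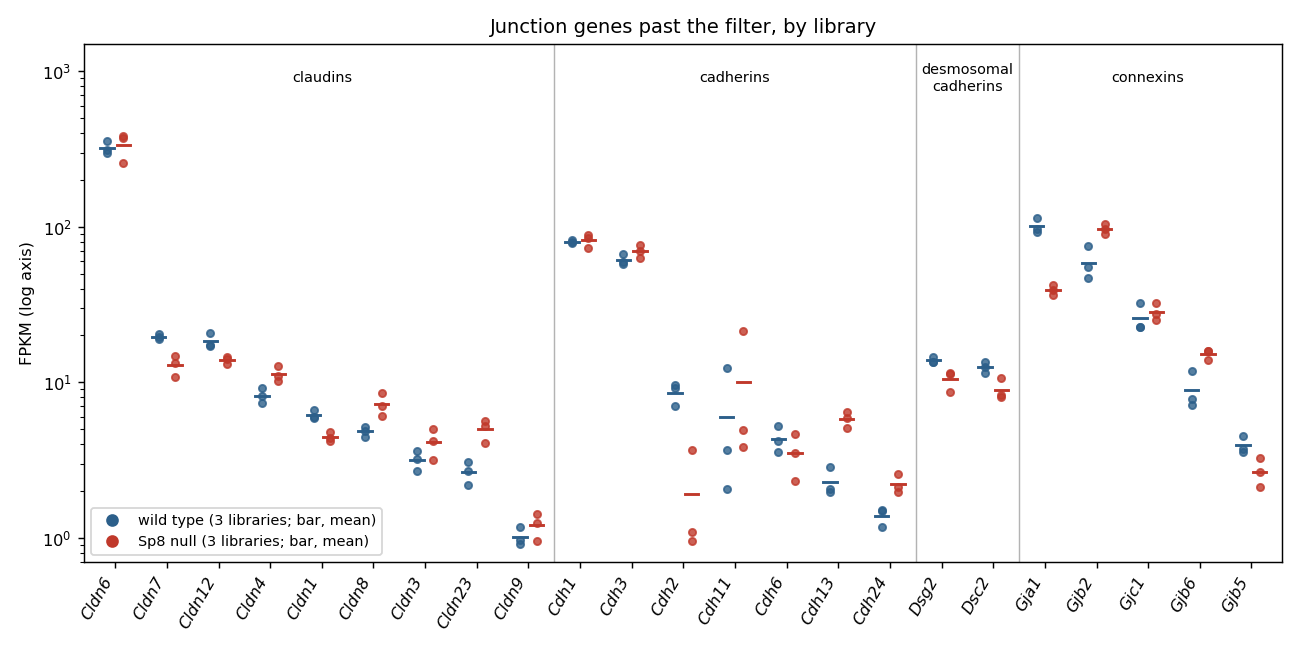
FPKM on a log axis of 23 tested junction genes, ordered by family and wild-type mean, with 1 point per library and a bar at each group mean. Cldn6 lies above all other members in both genotypes, and the order of Gja1 and Gjb2 is exchanged between wild type (101 and 59 FPKM) and Sp8 null (39.4 and 97 FPKM).

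In wild-type ectoderm the levels of tested members ran from 323 FPKM for Cldn6 down to 1.01 FPKM for Cldn9. Cldn6, Gja1 (101 FPKM) and Cdh1 (80.1 FPKM) were the 3 highest and their library values did not overlap with those of the next gene in order. Cdh3 (61.2 FPKM) and Gjb2 (59 FPKM) overlapped, as did Cldn7 (19.7 FPKM) and Cldn12 (18.4 FPKM), and each neighbour in the run from Dsc2 (12.5 FPKM) through Gjb6 and Cdh2 to Cldn4 (8.2 FPKM). From Cldn1 (6.15 FPKM) down to Cdh13 (2.29 FPKM) every neighbour overlapped with the next. FPKM is a level per transcript length, so these values can be set side by side between genes.

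Gap junction genes moved in both directions. The 6 tested connexins held 1 called fall (Gja1), 2 called rises (Gjb2 and Gjb6) and 3 without a call. Connexin FPKM summed to 206 ± 7.99 in Sp8 null and 237 ± 10.8 in wild type (SD, n = 3 each), while its makeup shifted. Gja1 made up 42.7% ± 5.04 of summed connexin FPKM in wild type and 19.1% ± 1.14 in Sp8 null, and Gjb2 made up 24.8% ± 5.41 and 47% ± 3.02 (SD, n = 3 each). These shares of a sum are a description and were not tested.

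Gja1 (ENSMUSG00000050953; GRCm38, chromosome 10, 56377330 to 56402513, plus strand, protein-coding) encodes the most widely expressed connexin, which is known in the apical ectodermal ridge. Sp8 null embryos 1 to 3 had 36.4, 39.5 and 42.2 FPKM, and wild-type embryos 1 to 3 had 92.5, 113 and 97.1 FPKM. Every Sp8 null library was lower than each wild-type library. The means were 39.4 ± 2.86 and 101 ± 10.9 FPKM (SD, n = 3 each), with a log2 fold change of FPKM + 1 of -1.33 (SE 0.10; limma adjusted p = 0.000361). This call held in each of the 6 fits that left out 1 library, with log2 fold changes of -1.39 to -1.25.

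Gjb2 and Gjb6 encode connexins of skin and inner ear whose human forms are both deafness genes, and they lie side by side. Gjb2 (ENSMUSG00000046352; GRCm38, chromosome 14, 57098600 to 57104702, minus strand) was at 96.4, 105 and 89.9 FPKM in the nulls and 75, 46.7 and 55.2 FPKM in wild type, embryos in order. The groups did not overlap, but wild-type embryo 1 stood nearest to the Sp8 null libraries. The log2 fold change was 0.73 (SE 0.16; limma adjusted p = 0.0394). Gjb6 (ENSMUSG00000040055; GRCm38, chromosome 14, 57123303 to 57133611, minus strand) was at 13.9, 16 and 15.8 FPKM in the nulls and 11.8, 7.18 and 7.8 FPKM in wild type. Here too the groups did not overlap and wild-type embryo 1 was the nearest wild-type library, with a log2 fold change of 0.74 (SE 0.17; limma adjusted p = 0.0431). Without wild-type embryo 1 the differences were 0.92 for Gjb2 and 0.93 for Gjb6 (limma adjusted p = 0.00768 and 0.00568). Leaving out any 1 of the other 5 libraries ended both calls: limma adjusted p was then 0.106, 0.116, 0.0677, 0.105 and 0.0976 for Gjb2 and 0.0895, 0.122, 0.0948, 0.136 and 0.108 for Gjb6, in the order of the 3 nulls and then wild-type embryos 2 and 3.

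Because Gjb2 and Gjb6 moved together and against Gja1, the 250 bases before each start site are shown, from RefSeq on GRCm38.p6, 5′ to 3′ on the gene's strand. Capitals mark a GC box, the textbook element bound by Sp factors (GGGCGG or its reverse complement CCGCCC), or an E-box of the kind bound by Snail and Zeb repressors (CACCTG or CAGGTG).
Gja1, chr10:56377050-56377299, plus strand: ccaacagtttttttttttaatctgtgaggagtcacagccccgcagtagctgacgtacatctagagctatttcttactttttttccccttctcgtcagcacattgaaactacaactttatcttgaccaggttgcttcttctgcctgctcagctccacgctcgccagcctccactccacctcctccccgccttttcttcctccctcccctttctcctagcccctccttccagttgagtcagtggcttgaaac
Gjb2, chr14:57104703-57104952, minus strand: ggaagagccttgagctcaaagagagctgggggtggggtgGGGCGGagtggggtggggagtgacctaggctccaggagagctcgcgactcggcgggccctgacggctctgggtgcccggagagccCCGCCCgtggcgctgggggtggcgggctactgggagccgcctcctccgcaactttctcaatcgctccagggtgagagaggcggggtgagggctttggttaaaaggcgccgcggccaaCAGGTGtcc
Gjb6, chr14:57133612-57133861, minus strand: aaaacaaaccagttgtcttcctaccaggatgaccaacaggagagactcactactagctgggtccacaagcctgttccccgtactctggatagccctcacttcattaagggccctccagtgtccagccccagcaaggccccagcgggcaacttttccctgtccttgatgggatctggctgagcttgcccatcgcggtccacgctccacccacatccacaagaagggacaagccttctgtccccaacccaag
The Gjb2 window held 2 GC boxes and 1 E-box, none of which overlap, and the windows of Gja1 and Gjb6 held neither. The G and C content was 69.2% for Gjb2, 56.8% for Gjb6 and 50% for Gja1, against a median of 52.4% over all 32851 windows of the table. A GC box was found in 32.7% of all windows and an E-box in 17.2%. A window was present for 12 of the 24 tested members, some with more than 1 start site, giving 15 windows. Of these 15 windows, 10 had a GC box and 4 had an E-box. TAATTA, a homeodomain core, was found upstream of Cldn1 alone of the 12 and in 4.84% of all windows. ATCAAAG or CTTTGAT, a TCF/LEF site, was found in none of the 12 and in 3.21% of all windows.

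Among the tested connexins without a call, Gjb5, a connexin of stratified epithelium, had means of 2.67 ± 0.562 FPKM in the nulls and 3.95 ± 0.519 FPKM in wild type (n = 3, SD; log2 fold change -0.44, limma adjusted p = 0.113), without overlap. Gjc1, a connexin of vessels and heart, overlapped, with 28.4 ± 3.79 and 25.9 ± 5.43 FPKM (SD, n = 3), and the 95% interval of its log2 fold change ran from -0.22 to 0.50.

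**Figure D2:**
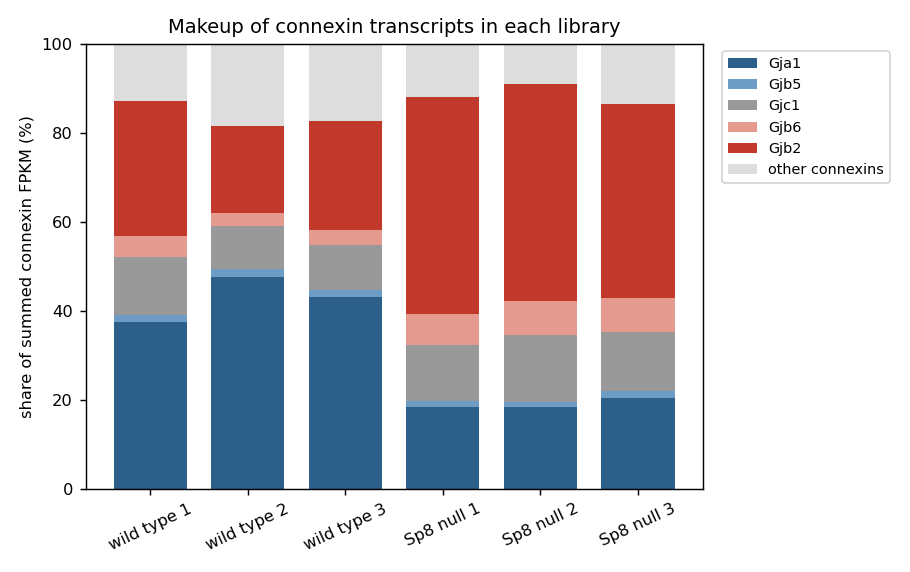
Stacked bars of the shares of connexins, in percent of summed connexin FPKM, for each of the 6 libraries. Gja1 holds 37.5% to 47.5% in the wild-type libraries and 18.4% to 20.4% in the Sp8 null libraries, and Gjb2 holds 19.6% to 30.4% and 43.5% to 48.8%.

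Of the 7 tested cadherins of adherens junctions and related types, 1 rose, 1 fell and 5 were not called, among them the most abundant ones. Cdh1 (E-cadherin), the main adhesion molecule of epithelia, was at 84.6, 72.6 and 88.5 FPKM in the nulls and 79.4, 82 and 79 FPKM in wild type. The groups overlapped, and the log2 fold change of 0.03 had a 95% interval of -0.17 to 0.22 (limma adjusted p = 0.883). Cdh3 (P-cadherin), the classical cadherin of basal epidermis and placenta, was at 70 ± 6.57 FPKM in the nulls and 61.2 ± 4.71 FPKM in wild type (SD, n = 3). Its interval ran from -0.02 to 0.40 (limma adjusted p = 0.262). Together these cadherins made up 46.2% ± 4.33 and 39.5% ± 3.03 of summed cadherin FPKM in Sp8 null, and 48.4% ± 1.5 and 36.9% ± 2.97 in wild type (SD, n = 3).

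Cdh2 (N-cadherin, ENSMUSG00000024304), best known from neural and mesenchymal tissue, had the largest difference of any tested member. It was at 1.1, 3.68 and 0.946 FPKM in the nulls and 9.14, 7.06 and 9.59 FPKM in wild type. The groups did not overlap, and Sp8 null embryo 2 stood above the other 2 Sp8 null libraries. The means were 1.91 ± 1.54 and 8.59 ± 1.35 FPKM (n = 3 each, SD), with a log2 fold change of -1.83 (SE 0.32, limma adjusted p = 0.0176). Sp8 null embryo 2 was the library with most mesenchymal marker RNA, at 236 FPKM against 102 and 91.2 FPKM in the other Sp8 null libraries. The single mesenchymal markers did not all follow that sum. Msx1 fell, from 6.07 to 8.91 FPKM in wild type to 2.28 to 3.19 FPKM in the nulls (limma adjusted p = 0.00467), and Lmx1b rose (limma adjusted p = 0.0166). Pdgfra, which was not called, had 6.37, 19.6 and 6.01 FPKM in the nulls and 23.8, 19.8 and 21.4 FPKM in wild type, with Sp8 null embryo 2 above the other nulls as for Cdh2. Of the 11 tested mesenchymal markers, 7 had higher means in the nulls and 4 had lower means, with a median log2 fold change of 0.673. Prrx1, Twist1, Col3a1, Meox2 and Tbx5 were among the higher ones, without a call. The part of mesenchymal RNA in the fall of Cdh2 was not tested. Without Sp8 null embryo 2 the log2 fold change of Cdh2 was -2.24 (limma adjusted p = 0.0007), and without both it and wild-type embryo 1 it was -2.19 (limma adjusted p = 0.00258). The call was lost without Sp8 null embryo 1, wild-type embryo 1 or wild-type embryo 3 (limma adjusted p = 0.0663, 0.0555 and 0.0588; log2 fold changes of -1.66, -1.79 and -1.76), and among the 4 libraries named with a 5 (-1.61, limma adjusted p = 0.145).

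Cdh13 (ENSMUSG00000031841; GRCm38, chromosome 8, 118283733 to 119324921, plus strand), an unusual cadherin held in the membrane by a lipid anchor, was at 5.86, 6.46 and 5.11 FPKM in the nulls and 2.84, 2.04 and 1.97 FPKM in wild type. All Sp8 null libraries lay above all wild-type libraries. Its log2 fold change was 1.06 (SE 0.13; limma adjusted p = 0.00535), and it was 0.99 to 1.17 with 1 library left out, always past the threshold. Cdh13 is also known from endothelium. Of the 10 endothelial markers, Egfl7 alone reached 1 FPKM, at 2.26 to 3.16 FPKM in the nulls and 1.82 to 2.84 FPKM in wild type, while Kdr and Tie1 were at most 0.131 and 0.0286 FPKM. Pecam1 was higher in each null, at 0.154 to 0.358 FPKM against 0.0466 to 0.123 FPKM, as was Cdh5, a member under the filter. Flt1 went the other way, at 0.0143 to 0.1449 FPKM in the nulls and 0.1561 to 0.2125 FPKM in wild type. The other endothelial markers overlapped between genotypes. The part of endothelial RNA in the rise of Cdh13 was not tested.

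The other tested cadherins were not called. Cdh11, a cadherin of mesenchyme, was at 3.84, 21.5 and 4.91 FPKM in the nulls and 12.3, 2.07 and 3.65 FPKM in wild type. Its high libraries were those highest for the mesenchymal markers in each genotype, the groups overlapped, and its 95% interval ran from -1.02 to 2.20 (log2 fold change 0.59, limma adjusted p = 0.651). Whether mesenchymal RNA accounts for this spread was not tested. Cdh6, known from kidney and neural crest, overlapped, at 3.49 ± 1.16 and 4.32 ± 0.837 FPKM in the nulls and wild type (SD, n = 3; limma adjusted p = 0.483). Cdh24, a type II cadherin, was at 2.22 ± 0.311 and 1.39 ± 0.187 FPKM without overlap (SD, n = 3; log2 fold change 0.43, limma adjusted p = 0.0788).

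**Figure D3:**
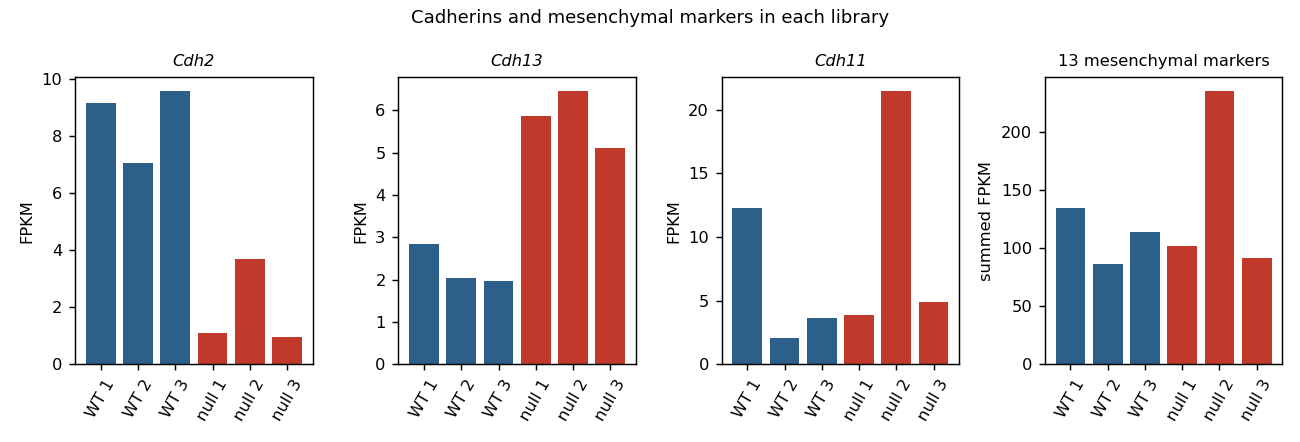
Bars of the FPKM of Cdh2, Cdh13 and Cdh11, and of the summed FPKM of 13 mesenchymal markers, for each library (blue, wild type; red, Sp8 null). Cdh11 is highest in Sp8 null embryo 2 and wild-type embryo 1, as are the markers, while Cdh2 is lower and Cdh13 higher in all 3 Sp8 null libraries.

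Claudins of the tight junction were mostly Cldn6, which was not called. Cldn6, a claudin of embryonic epithelia, made up 83.2% ± 0.98 of summed claudin FPKM in wild type and 84.5% ± 1.81 in Sp8 null (SD, n = 3). It was at 372, 257 and 385 FPKM in the nulls and 299, 356 and 314 FPKM in wild type. The groups overlapped, and the 95% interval of its log2 fold change ran from -0.32 to 0.41 (limma adjusted p = 0.888). Of the 9 tested claudins 2 fell, 1 rose and 6 were not called.

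Cldn7 (ENSMUSG00000018569; GRCm38, chromosome 11, 69964779 to 69967885, plus strand), a claudin also found along the lateral membrane, was at 14.8, 10.9 and 13.4 FPKM in the nulls and 19.6, 19 and 20.4 FPKM in wild type. The Sp8 null libraries were all lower (log2 fold change -0.57, SE 0.11, limma adjusted p = 0.0266). Cldn1 (ENSMUSG00000022512; GRCm38, chromosome 16, 26356642 to 26371841, minus strand), which the epidermis needs to hold water, was at 4.76, 4.37 and 4.17 FPKM in the nulls and 5.94, 6.62 and 5.89 FPKM in wild type. These groups did not overlap either (log2 fold change -0.40, SE 0.09, limma adjusted p = 0.0451). Cldn23 (ENSMUSG00000055976; GRCm38, chromosome 8, 35824712 to 35826559, minus strand) was at 5.61, 4.07 and 5.24 FPKM in the nulls and 3.08, 2.7 and 2.2 FPKM in wild type, again without overlap (log2 fold change 0.71, SE 0.14, limma adjusted p = 0.0299).

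These claudin calls lay near the threshold. That of Cldn1 was lost whichever library was left out (limma adjusted p = 0.0721, 0.123 and 0.103 without each null in turn, and 0.0986, 0.173 and 0.0846 without each wild type, embryos in order). That of Cldn7 was lost without Sp8 null embryo 3 or wild-type embryo 1, 2 or 3 (limma adjusted p = 0.0545, 0.0747, 0.086 and 0.0751), and that of Cldn23 without Sp8 null embryos 1 or 3 or wild-type embryos 2 or 3 (limma adjusted p = 0.0904, 0.0762, 0.0987 and 0.0745). Under median-of-ratios and upper-quartile scaling the falls of Cldn7 (limma adjusted p = 0.053 and 0.0551) and Cldn1 (0.0821 and 0.0917) were no longer called.

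The claudins without a call included 3 whose groups did not overlap. Of all tested genes, 8.63% were higher and 21.1% lower without overlap. Cldn4, an epithelial claudin, was at 12.7, 10.1 and 11 FPKM in the nulls and 9.16, 8.11 and 7.32 FPKM in wild type (log2 fold change 0.42, SE 0.11, limma adjusted p = 0.071). Cldn8, known as a cation barrier in kidney tubules, had a mean of 7.22 ± 1.27 FPKM in the nulls and 4.83 ± 0.384 FPKM in wild type (n = 3, SD; log2 fold change 0.49, limma adjusted p = 0.0634). Cldn4 and Cldn8 were both called under median-of-ratios (limma adjusted p = 0.0452 and 0.0254) and upper-quartile scaling (0.0389 and 0.0235). Cldn12, a divergent claudin, was at 13.9 ± 0.732 FPKM in the nulls and 18.4 ± 2.0 FPKM in wild type (n = 3, SD; log2 fold change -0.37, limma adjusted p = 0.0585). Cldn3 (4.13 ± 0.929 and 3.16 ± 0.456 FPKM; limma adjusted p = 0.304) and Cldn9 (1.21 ± 0.238 and 1.01 ± 0.134 FPKM; limma adjusted p = 0.597) overlapped (Sp8 null and wild type, SD, n = 3). An exon of Cldn3 overlaps a gene on the other strand, and the use of strand in counting is not given in the sources used here.

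**Figure D4:**
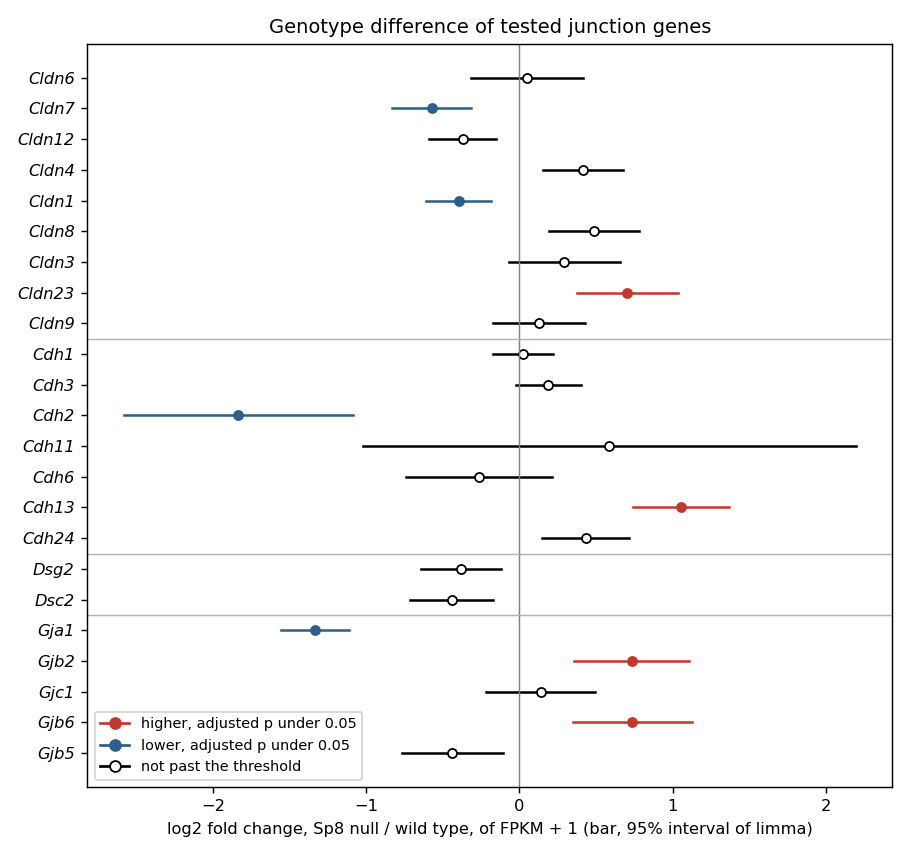
Log2 fold change (Sp8 null over wild type, of FPKM + 1) of 23 tested junction genes with its 95% interval from limma, ordered as in the plot of levels. Red marks the 4 called rises, blue the 4 called falls and open points 15 members without a call, of which Cdh1 and Cdh3 have the narrowest intervals around 0 among the cadherins.

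Both tested desmosomal cadherins had lower values in Sp8 null, and neither was called. Dsg2, the desmoglein of simple epithelia and of basal cells, was at 11.3, 8.66 and 11.4 FPKM in the nulls and 13.5, 14.4 and 13.5 FPKM in wild type. Its groups did not overlap, and the log2 fold change was -0.38 (SE 0.11; limma adjusted p = 0.0895). A gene on the other strand overlaps an exon of Dsg2. Dsc2, the matching desmocollin, was at 8.32, 8.01 and 10.6 FPKM in the nulls and 11.4, 13.4 and 12.6 FPKM in wild type. It also showed no overlap (log2 fold change -0.44, SE 0.12, limma adjusted p = 0.0673), and it was called without Sp8 null embryo 3 (log2 fold change -0.55, limma adjusted p = 0.0314). Under the filter, Dsc3 (0.539, 0.426 and 0.521 FPKM in the nulls; 0.76, 0.656 and 0.972 FPKM in wild type) and Dsg3 (0.0498, 0.0533 and 0.117 FPKM; 0.257, 0.388 and 0.232 FPKM) were lower in each Sp8 null library. Both belong to the set used by stratified epidermis.

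In all, 5 of the 9 desmosomal cadherins were lower in Sp8 null without overlap, the last being Dsg1b, listed at 0 in Sp8 null and at 0.0241 to 0.0556 FPKM in wild type. This pattern was found for 11.8% of all genes with any value above 0. The other 4 desmosomal cadherins reached at most 0.109 FPKM. The test of the authors' deposited table is not described in the sources used here. That table gave fold-change scores of -1.28 for Dsg2, -1.34 for Dsc2, -1.49 for Dsc3 and -2.21 for Dsg3. These scores need not equal the ratio of the group means, which for Dsg3 were 59.26 in wild type and 14.35 in Sp8 null.

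Of the 50 members under the filter, 9 were listed at 0 in every library, 20 reached less than 0.1 FPKM and 16 reached 0.1 to 0.5 FPKM. The other 5 were Dsc3, Cdh23 (at most 0.93 FPKM), Cdh4 (0.84 FPKM), Cldn10 (0.547 FPKM) and Cldn20 (0.512 FPKM). Besides the desmosomal genes, Cdh8, Cdh10 and Cldn20 were lower in Sp8 null without overlap. Cdh10 is a type II cadherin known from brain. It was at 0.123, 0.0703 and 0.077 FPKM in the nulls and 0.322, 0.419 and 0.353 FPKM in wild type. The authors' deposited table gave Cdh10 a fold-change score of -2.05. Cdh10 was called in the fit without a filter on low values (limma adjusted p = 0.0415). The 2 members under the filter that were higher without overlap were Cdh5 and Cdh20, against 7.47% of all genes with any value above 0. Cdh5, the cadherin of endothelium, was listed at 0 in each wild-type library and at 0.359, 0.0976 and 0.0242 FPKM in Sp8 null, and Cldn5, the endothelial claudin, reached at most 0.0228 FPKM.

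Several members lie in gene clusters, and the directions can be read by cluster. Gjb2 and Gjb6, which both rose, are 18601 bases apart. Gja3, which lies 40500 bases from Gjb2 on the other side, reached only 0.433 FPKM. Cldn4 and Cldn3, 39280 bases apart on chromosome 5, both had higher means in Sp8 null. Cdh1 and Cdh3 are separated by 46054 bases on chromosome 8, and neither was called. Cldn6 and Cldn9 are 138 bases apart on opposite strands of chromosome 17, with a mean of 323 FPKM for one and 1.01 FPKM for the other in wild type. No member lies on chromosome 12, which carries Sp8.

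The list of junction partners held anchoring and scaffold proteins, regulators of epithelial to mesenchymal transition and pannexins. Of 56 listed symbols 50 were found among the measured genes and 42 passed the filter. Pkp1 and Pard6b were called, both lower, and these 2 of 42 are near the background of 6.83% called among all tested genes. Pkp1, a desmosomal plaque protein of the plakophilin family, was at 1.59, 1.34 and 1.65 FPKM in the nulls and 3.31, 2.81 and 3.2 FPKM in wild type, without overlap (log2 fold change -0.70, SE 0.11, limma adjusted p = 0.0113). Pard6b, a polarity protein of the apical complex, was at 6.99, 8.55 and 8.84 FPKM in the nulls and 12.1, 13.2 and 11.5 FPKM in wild type, also without overlap (log2 fold change -0.54, SE 0.11, limma adjusted p = 0.0266). For Pard6b the call was lost without Sp8 null embryos 1 or 2 or wild-type embryos 1, 2 or 3 (limma adjusted p = 0.0607, 0.0581, 0.0715, 0.112 and 0.053). Under median-of-ratios scaling Pkp3 and Tjp3 were called as well, both higher, and under upper-quartile scaling also Snai2 and Nectin3.

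By kind of partner, 0 of 11 tested catenins and adherens partners were called (limma adjusted p between 0.101 and 0.927, with 3 of 11 at non-overlapping values, near the 29.8% of all tested genes). Ctnnb1, beta-catenin, was at 470 ± 56.8 FPKM in the nulls and 452 ± 22.1 FPKM in wild type, and Jup, plakoglobin, at 30.1 ± 3.89 and 33 ± 1.24 FPKM (SD, n = 3). In the desmosomal plaque 1 of 7 was called, in the tight junction scaffold 1 of 19, and none of the 4 tested regulators of epithelial to mesenchymal transition was called, nor was Panx1, the tested pannexin. Of the 7 tested plaque genes 5 did not overlap, 1 higher and 4 lower, where 8.63% and 21.1% of all tested genes were. Perp, a desmosome-associated membrane protein, was lower without overlap and without a call (178 ± 18.8 and 230 ± 18.1 FPKM; SD, n = 3; limma adjusted p = 0.0626), while Pkp3 was higher in the same way (7.28 ± 0.934 and 5.14 ± 0.300 FPKM; SD, n = 3; limma adjusted p = 0.056). Pkp2 and Pkp4 were also lower without overlap and without a call (limma adjusted p = 0.1175 and 0.2022). Snai2, a repressor of Cdh1, was at 46.8 ± 3.86 FPKM in the nulls and 37.2 ± 2.96 FPKM in wild type (SD, n = 3; limma adjusted p = 0.079).

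**Figure D5:**
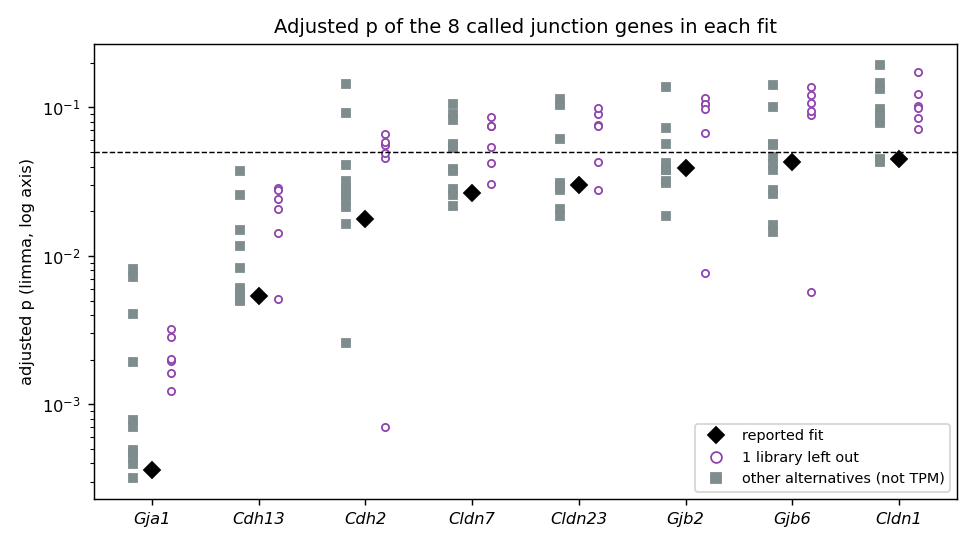
Limma adjusted p on a log axis of the 8 called junction genes in the reported fit (black diamonds), the fits without 1 library (open circles) and the other alternatives except TPM (grey squares), with a dashed line at 0.05. Gja1 and Cdh13 lie under the line in every fit shown, and each of the other 6 crosses it in at least 1.

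In the authors' deposited table, a comparison of the same libraries whose test is not described, the called members had the same directions. Its fold-change scores were -2.45 for Gja1, 1.57 for Gjb2 and 1.71 for Gjb6. It gave -1.72 for Cdh2 and 2.27 for Cdh13. For the claudins it gave -1.47 for Cldn7, -1.34 for Cldn1 and 1.79 for Cldn23. For Cdh1 and Cldn6 the authors' deposited table gave 1.03 and 1.06. Its scores need not equal the ratio of its group means, which for Cdh2 were 1303.19 in wild type and 296.46 in Sp8 null.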

How the data were processed

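RNA was measured in ectoderm from 6 mouse embryos at E10.5, 3 of each genotype, grouped by sample title. The authors deposited FPKM per gene and library, with gene models of Ensembl build 87 per the file headers. The submitters' processing notes name TopHat2, Cufflinks, SAMtools, FastQC and DESeq2 and the GRCm38 build, without roles; strand use and scaling are not given in the sources used here. The authors' deposited table also holds group means (a normalized signal), a signed fold-change score and a p-value per gene. Of these the fold-change score is printed, as a description, and the group means are printed for Cdh2 and Dsg3.

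The 12133 genes that reached 1 FPKM in 3 or more libraries were analysed as log2(FPKM + 1), which understates changes of low genes, with limma 3.58.1 in R 4.3.3 (genotype only, mean-variance trend, two-sided, Benjamini-Hochberg over all tested genes). The fit was checked on simulated data. Whole reads were not recovered, so there are no counting intervals. Relative depth is the commonest ratio of low FPKM values. Coordinates are from GENCODE M21 (GRCm38), which matched all 74 members by identifier, and promoter windows from RefSeq (GRCm38.p6). Named are Sp8, the tested members except 1 that is not reported here, members under the filter that reached 0.5 FPKM, and called partners. Others (Dsg3, Dsg1b, Cdh8, Cdh10, Cdh5, Cdh20, Cldn5, Gja3, single marker genes and uncalled partners) were chosen after their values were seen. Members and lists were chosen with earlier results of these data known. Alternatives changed the pseudocount, filter, scaling, variance model and covariates, or left out libraries.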

Additional observations from a re-analysis of the deposited data

How the results depend on the processing

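Called genes, 829 in the reported fit, were 342 with no filter on low values, 545 with the first digit of sample names as covariate, and 316 to 642 with 1 replicate left out. Called members, 8 in the reported fit, were 3 with no filter and 2 to 6 with 1 replicate left out. Called partners, 2 in the reported fit, were 4 under median-of-ratios and 6 under upper-quartile scaling, 0 in limma with no filter (15 at an unadjusted p under 0.05), and 1 to 2 with 1 replicate left out. Embryo numbers did not pair the samples (correlations of same-numbered deviations -0.164, -0.145 and -0.07, with 0 of 6 libraries closest to their own number). The replicate block gave 328 genes, 3 members and 1 partner.

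Scaling FPKM to an equal sum in each library (TPM) left 0 calls among all genes, members and partners in limma (23, 0 and 0 at an unadjusted p under 0.05) and moved Sp8 to -1.53. A single mitochondrial tRNA gene, mt-Tl1, held 48.4% to 96.1% of each library's summed FPKM, so this scaling follows that gene, and it shifted the median log2 fold change of all genes by 0.381. Signs changed there for Cldn12 (0.155), Dsg2 (0.108), Dsc2 (0.069), Cldn1 (0.065), Cdh6 (0.235) and Pard6b (0.024).

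Alternatives chosen after seeing the data were fits without Sp8 null embryo 2 and wild-type embryo 1, those with most mesenchymal marker RNA (325 genes, 6 members, 0 partners, of which 9 were at an unadjusted limma p under 0.05), and with the 4 libraries named with a 5 (251 genes, 4 members, 0 partners, with 8 unadjusted). In the latter the signs of Cldn6 (-0.088), Cdh1 (-0.006) and Cdh6 (0.053) changed. The digit 4 marks 1 library per genotype, which allows no test. With 1 replicate left out the sign changed for Cldn6 (range -0.058 to 0.233, with -0.034 without Sp8 null embryo 1 and -0.007 without wild-type embryo 1), Cdh1 (-0.032 to 0.11) and Cdh11 (-0.103 to 1.193). Of 478 values of 27 single genes, 379 kept direction and side of the threshold, 74 were no longer past it, 11 newly passed and 14 changed sign. Apart from TPM, the cause was not tested. The filter, not depth in reads, limits which members were tested.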
